A study of Bos taurus with 31 samples.

Results

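The genes described here were 10 named clock genes, chosen by symbol as activators, repressors and outputs, of which 9 had a row among the 14084 rows of the count table: ARNTL, CLOCK, PER1, PER2, CRY1, CRY2, NR1D1, NR1D2 and DBP. PER3 was not analysed here. All 9 passed the filter on low counts, as did 13180 rows in all. RNA sequencing had been performed on mammary epithelial organoids of dairy cows (Bos taurus), the clumps of epithelium left after biopsy tissue was digested with collagenase, trypsin and hyaluronidase for 3.5 hours at 37 °C in medium with 5% serum and insulin. The virgin group held 15 libraries from heifers biopsied at 14 months of age, and the lactating group 16 libraries from the same animals at 40 to 60 days of lactation. Of the 16 cows, 15 gave both, and 1 a lactating library alone (L495). V479 and L479, for example, stand for the virgin and the lactating library of 1 cow. With each counted locus taken once, totals were 12477568 to 38794104 counts per virgin and 17637505 to 45478555 counts per lactating library. Milk protein genes took 0.0281% to 0.681% of the virgin and 0.242% to 50.7% of the lactating counts.

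The circadian clock of a cell is a loop of transcription factors that turn each other on and off over the day. The activators CLOCK and ARNTL (also called BMAL1) pair up and switch on the PER, CRY and NR1D genes. PER and CRY proteins then block that pair, and NR1D1 and NR1D2 (REV-ERB alpha and beta) hold ARNTL down, while ROR receptors raise it. DBP is a transcription factor that the activators drive directly and that carries the rhythm to other genes. Most tissues, the mammary gland included, hold such a clock, and daily cues such as feeding and glucocorticoid hormones set its time.

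The labels give no time of day for the biopsies, no feeding or milking times and no processing order. Stage therefore cannot be told apart from time of day, age, parity or season for genes whose level changes over the day. In this bulk RNA, fewer cells of a type and less RNA per cell cannot be told apart either. Of the 9 rows, 7 were loci of their own. The PER1 row held the same counts in all libraries as that of VAMP2, a neighbouring vesicle protein gene, over a locus 1.37 times the RefSeq span of PER1. The NR1D2 row held the same counts as that of UBE2E2, a ubiquitin-conjugating enzyme gene, and 1 unnamed gene, over a locus 17.8 times the span of NR1D2. Values printed for PER1 and NR1D2 are those of the joined loci, and the share of the clock gene in each was not measured. The loci of CLOCK and PER2 covered 0.595 and 0.411 of their RefSeq spans. NR1D1 overlaps THRA, a thyroid hormone receptor gene, by 1101 bases in the RefSeq table, and whether counting used strand is not given in the sources used here.

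Between virgin and lactating organoids the clock genes moved in both directions. CLOCK, NR1D1 and the NR1D2 locus rose 1.51- to 1.56-fold in lactation. PER2 fell to 0.559 of its virgin level, CRY1 to 0.706 and the PER1 locus to 0.723. ARNTL, CRY2 and DBP were not called. Calls are edgeR quasi-likelihood tests at a Benjamini-Hochberg adjusted p under 0.05 over all rows. In that comparison 24.2% of all tested rows were called higher and 30.9% lower, 55.1% in all, so 3 higher and 3 lower of 9 is near the background share. The median log2 fold change of the 9 rows was -0.14, against -0.08 for all tested rows. These calls did not use the pairing of the animals. With the animal as a block 4 of the 9 rose and 3 fell, DBP being the added call, beside 3666 and 3656 of all rows. The calls of the rises depended on scaling by TMM factors, which rescale libraries in which a few abundant genes take a large part of the counts. Without these factors 1389 of the 13180 tested rows were called higher and 7751 lower, and the median of all rows was -0.56. Of the 9 rows 0 then rose and 5 fell (PER1, PER2, CRY1, CRY2 and ARNTL), near the shares of all rows. Unless stated otherwise, changes are given with TMM factors, that is, against the bulk of genes.

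**Figure D1:**
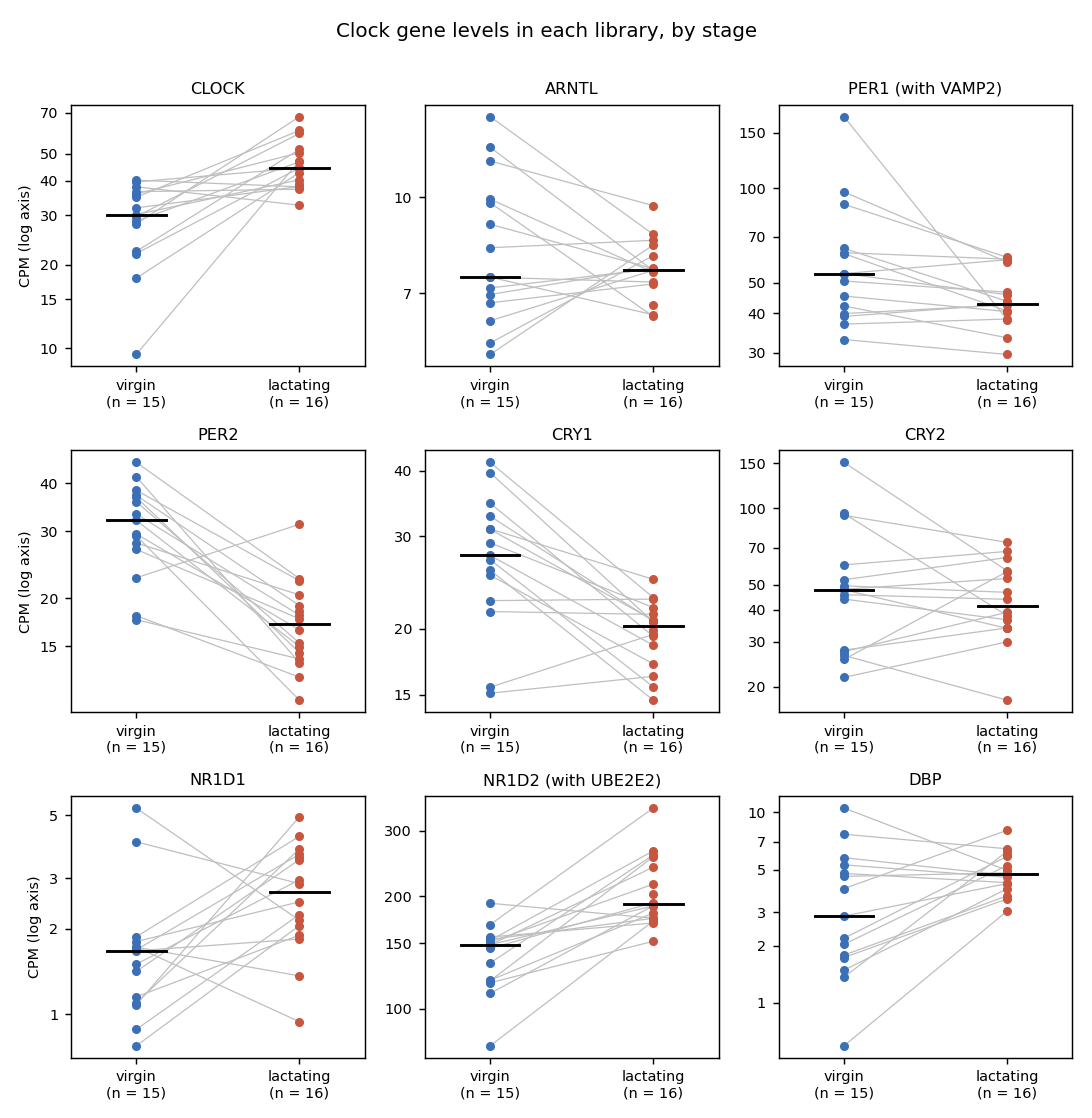
Level of each clock gene in CPM (read counts scaled to a common library size with TMM factors, log axis) in 15 virgin and 16 lactating libraries; points are libraries, grey lines join libraries of 1 animal, and black bars are medians. PER2 was lower in lactation in 14 of 15 animals and CLOCK higher in 13 of 15, while the ARNTL medians of 7.43 and 7.64 CPM were close and its lactating range was narrow.

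Of the activators, CLOCK, the partner with histone acetyltransferase activity, ranged from 9.51 CPM (read counts scaled to a common library size with TMM factors) through a median of 30.2 to 40.1 in virgin libraries. In lactating libraries it ranged from 32.6 through 44.4 to 67.9 CPM. In 11 of 16 lactating libraries CLOCK stood above the highest virgin library, V531, and V479 at 9.51 CPM lay well under the next virgin library, V581, at 17.9 CPM. The means were 29.7 ± 8.70 CPM (SD, n = 15) and 46.3 ± 9.64 CPM (SD, n = 16), a log2 fold change of 0.64 ± 0.14 (SE; adjusted p by edgeR = 3.56e-04), with higher values in 13 of 15 animals. Without TMM factors it was 0.09 (edgeR adjusted p = 0.655).

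ARNTL, the partner of CLOCK, showed no called change. It ranged from 5.58 through a median of 7.43 to 13.5 CPM in virgin and from 6.42 through 7.64 to 9.69 CPM in lactating libraries. All 16 lactating values lay inside the virgin range. The log2 fold change was -0.14 ± 0.11 (SE; adjusted p by edgeR = 0.299), with ARNTL higher in 7 and lower in 8 of 15 animals. Without TMM factors it was -0.66 (edgeR adjusted p = 0.00114). The 2 activators thus gave different calls, and whether their changes differ from each other was not tested.

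Among the repressors, PER2, which with its CRY partners closes the loop, had the furthest change of the 9 rows. Virgin libraries ranged from 17.6 through a median of 32.0 to 45.4 CPM, and lactating ones from 10.8 through 17.1 to 31.3 CPM. The groups overlapped in part, with 8 of 16 lactating libraries below the lowest virgin library (V509) and 8 inside the virgin range. Means of 31.5 ± 8.13 CPM (SD, n = 15) and 17.6 ± 4.97 CPM (SD, n = 16) gave a log2 fold change of -0.84 ± 0.14 (SE; adjusted p by edgeR = 7.51e-06). PER2 was lower in 14 of 15 animals, the exception being the cow of V581 and L581, and kept its call in all 12 alternative settings and with any 1 library left out.

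CRY1, the cryptochrome that holds the activator pair in check, ranged from 15.1 through 27.6 to 41.5 CPM in virgin and from 14.6 through 20.2 to 24.8 CPM in lactating libraries. The lactating values were bunched, and 15 of 16 lay within the wide virgin range. Its means were 28.0 ± 7.60 CPM (SD, n = 15) and 19.8 ± 2.83 CPM (SD, n = 16). The log2 fold change was -0.50 ± 0.12 (SE; adjusted p by edgeR = 6.39e-04), with lower values in 12 of 15 animals, and it was called in all 12 alternative settings.

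CRY2, the second cryptochrome, was spread more widely than CRY1 at both stages. It ranged from 21.7 through 47.9 to 151.1 CPM in virgin and from 17.7 through 41.5 to 73.4 CPM in lactating libraries. The groups overlapped almost entirely. The log2 fold change was -0.26 ± 0.23 (SE; adjusted p by edgeR = 0.344), lower in 8 of 15 animals, and -0.64 (edgeR adjusted p = 0.0113) without TMM factors.

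The PER1 locus, which includes VAMP2, ranged from 33.0 through 53.5 to 168.7 CPM in virgin and from 29.6 through 42.9 to 60.3 CPM in lactating libraries. V479 stood alone at the top, ahead of V478 at 97.3 CPM, and 15 of 16 lactating libraries lay within the virgin range. The log2 fold change was -0.47 ± 0.18 (SE; adjusted p by edgeR = 0.0257), lower in 11 of 15 animals. Without V479 it was -0.28 and the call was lost (edgeR adjusted p = 0.0796), as it was with limma-voom (-0.35, adjusted p = 0.0759). In the cow of V479 the locus fell by 2.14 on the log2 scale, against a median change over the 15 animals of -0.16.

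NR1D1, a haem-binding nuclear receptor that represses ARNTL, had few reads, with 22 to 111 counts per virgin and 46 to 176 per lactating library. It ranged from 0.775 through 1.67 to 5.30 CPM in virgin and from 0.942 through 2.68 to 4.94 CPM in lactating libraries. Every lactating value lay inside the virgin range, whose top was set by V479 and V502. The log2 fold change was 0.60 ± 0.25 (SE; adjusted p by edgeR = 0.0383), higher in 11 of 15 animals. This call was lost when any 1 of 14 libraries was left out (L495, L507, L531, L538, L595, L598, V468, V478, V509, V531, V581, V595, V598 or V610), with adjusted p up to 0.0711. It was 0.80 (edgeR adjusted p = 0.00259) without V479 and 0.33 (adjusted p = 0.42) without the 5 animals whose virgin title carries a letter after the number, a mark that the labels do not explain. Without TMM factors NR1D1 stood at 0.14 (edgeR adjusted p = 0.625), and its call was also lost without L478 and L538. The call was kept in 8 of 12 alternative settings.

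The NR1D2 locus, which includes UBE2E2, ranged from 79.6 through 148.2 to 191.7 CPM in virgin and from 151.7 through 190.6 to 344.7 CPM in lactating libraries. Of the lactating libraries, 8 of 16 exceeded every virgin one, with L478 highest. The log2 fold change was 0.60 ± 0.12 (SE; adjusted p by edgeR = 5.87e-05), higher in 14 of 15 animals, and 0.14 (adjusted p = 0.447) without TMM factors.

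DBP, the output factor, had the widest virgin spread of the 9 rows. It ranged from 0.594 through 2.86 to 10.6 CPM in virgin and from 3.04 through 4.74 to 8.06 CPM in lactating libraries. The virgin values reached from V509 at the bottom to V479 at the top and enclosed all 16 lactating values. The means were 3.78 ± 2.74 CPM (SD, n = 15) and 4.97 ± 1.296 CPM (SD, n = 16), and the log2 fold change of 0.40 ± 0.27 (SE; adjusted p by edgeR = 0.210) was not called. With the animal as a block, which compares each cow with itself, DBP rose by 0.68 (edgeR adjusted p = 0.0223). It was also called without V479 (0.59, edgeR adjusted p = 0.0422) and with limma-voom (0.80, adjusted p = 0.0144), and stood at 0.01 without TMM factors (edgeR adjusted p = 0.980). DBP was higher in lactation in 10 of 15 animals.

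In the authors' deposited table, 2 of the 9 rows had an adjusted p under 0.05, as did 21.1% of all rows there. These were PER2, with a log2 fold change of -0.81 in lactation (adjusted p = 5.34e-04), and the NR1D2 locus at 0.63 (adjusted p = 0.00406). CLOCK stood at 0.67 in the authors' deposited table (adjusted p = 0.0682), and the other 6 rows had an adjusted p of 1 there. Both rest on the same counts, and the adjustment behind the deposited values is not given in the sources used here.

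**Figure D2:**
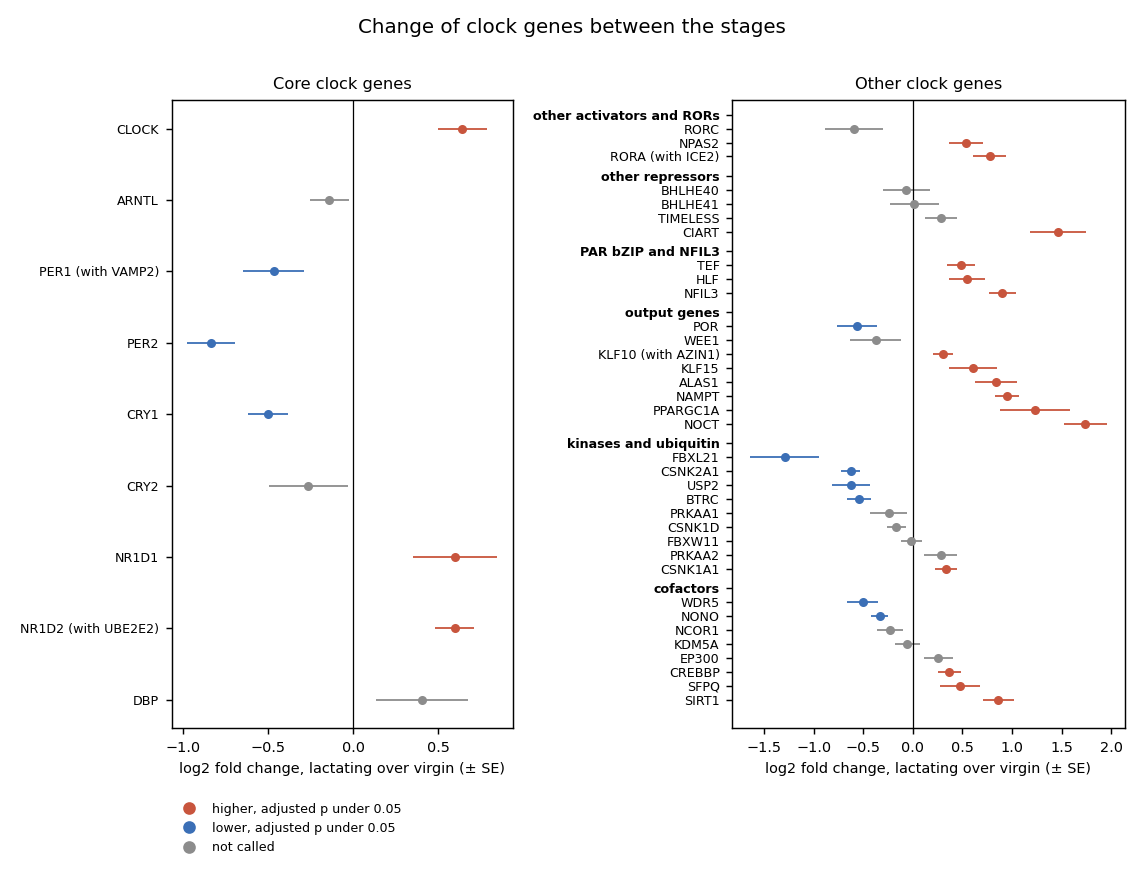
Log2 fold change of lactating over virgin libraries with its SE for the 9 core clock rows (left) and 35 of the 36 other clock genes in 6 groups (right); red and blue mark calls at an edgeR adjusted p under 0.05, grey no call. PER2 at -0.84 is the furthest of the core rows, and NOCT at 1.74 and FBXL21 at -1.29 are the ends of the wider list. FBXL21 was low, with means of 1.11 CPM in virgin and 0.447 CPM in lactating libraries and an SE of 0.35.

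Beyond these 9, a list of 42 other clock genes had 36 tested members, of which 16 rose, 8 fell and 12 were not called. Of all tested rows 24.2% were called higher and 30.9% lower. Their median log2 fold change was 0.27, against -0.08 for all tested rows. Without TMM factors 4 rose and 16 fell, with a median of -0.27, beside 1389 higher and 7751 lower of all rows. Without the 5 animals with a lettered virgin title 10 rose and 5 fell. That fit had fewer libraries, and its share of calls over all rows is not given here, for this or the lists below.

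Of the 8 tested output genes, 6 rose and 1 fell, against 24.2% and 30.9% of all rows. Among those that rose, KLF10 was counted over a locus joined with AZIN1, 31.0 times its RefSeq span. ALAS1 was counted over 5.76 times its span. NOCT (nocturnin), a rhythmic phosphatase of nicotinamide cofactors, went from 35.5 ± 15.0 CPM (SD, n = 15) to 119 ± 47.1 CPM (SD, n = 16), a log2 fold change of 1.74 ± 0.21 (SE; adjusted p by edgeR = 5.15e-08), higher in 15 of 15 animals. NAMPT, the rate-limiting enzyme of NAD salvage, rose by 0.94 ± 0.12 (edgeR adjusted p = 8.97e-08), also in 15 of 15 animals. POR, the electron donor of cytochrome P450 enzymes, was the output gene that fell (-0.56 ± 0.20, edgeR adjusted p = 0.0193), in 9 of 15 animals. The POR call was lost without the animals with a lettered virgin title (-0.69, adjusted p = 0.0541), without V479 (-0.35, edgeR adjusted p = 0.0640), with the animal as a block (-0.33, adjusted p = 0.135) and with limma-voom (-0.34, adjusted p = 0.125). Without TMM factors 2 of the 8 rose and 2 fell, and without the animals with a lettered virgin title 3 rose and 0 fell.

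The 3 tested relatives of DBP all rose, against 24.2% of all rows. NFIL3, which competes with DBP for the same sites as a repressor, went from 97.7 ± 26.4 CPM (SD, n = 15) to 182 ± 45.1 CPM (SD, n = 16), a log2 fold change of 0.90 ± 0.14 (SE; adjusted p by edgeR = 1.71e-06), with a rise in 13 of 15 cows. TEF (0.48 ± 0.14) and HLF (0.55 ± 0.18), activators of the DBP family, rose with edgeR adjusted p of 0.00469 and 0.0120. Only NFIL3 of these 3 stayed called without TMM factors, 2 of 3 were called with the animal as a block, and 1 of 3 without the animals with a lettered virgin title.

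Of the other activators and ROR receptors, 2 of 3 rose and 0 fell, against 24.2% and 30.9% of all rows. Without TMM factors 0 of the 3 rose and 1 fell, beside 1389 higher and 7751 lower of all rows. RORA, counted over a locus shared with ICE2, rose by 0.77 ± 0.16 (edgeR adjusted p = 1.78e-04), in 14 of 15 animals, and stood at 0.27 without TMM factors (adjusted p = 0.172). NPAS2, a relative of CLOCK that can replace it, was low at 0.924 ± 0.374 CPM (SD, n = 15) and 1.34 ± 0.330 CPM (SD, n = 16) and rose by 0.54 ± 0.17 (edgeR adjusted p = 0.00919). Of the 4 other repressors 1 rose, CIART, which inhibits the CLOCK and ARNTL pair. It went from 4.20 ± 2.82 CPM (SD, n = 15) to 11.6 ± 4.33 CPM (SD, n = 16), a log2 fold change of 1.46 ± 0.29 (SE; adjusted p by edgeR = 6.48e-05). It rose in 14 of 15 cows, and its locus was 3.61 times the RefSeq span. BHLHE40 (-0.07 ± 0.23) and BHLHE41 (0.01 ± 0.25), repressors at the same E-box sites, were not called.

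Genes for the kinases and ubiquitin ligases that set the life span of PER and CRY proteins were called lower in 5 of 10 cases and higher in 1, against 30.9% of all rows called lower. CSNK2A1, a catalytic subunit of casein kinase 2, fell by 0.63 ± 0.10 (edgeR adjusted p = 3.39e-06) in 15 of 15 animals, and BTRC, a ligase subunit that marks PER proteins, fell by 0.54 ± 0.12 (adjusted p = 4.11e-04). CSNK1A1, a casein kinase 1, rose by 0.34 ± 0.11 (edgeR adjusted p = 0.0106), and its sign turned without TMM factors (-0.12, adjusted p = 0.515). Without those factors 8 of the 10 were lower and 0 higher, beside 7751 lower and 1389 higher of all rows. With limma-voom 3 of the 10 were lower and 1 higher, as also without the animals with a lettered virgin title. The shares of all rows called in these fits are not given here.

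Chromatin and cofactor genes were divided, with 3 of 8 higher and 2 lower, and 0 higher and 4 lower without TMM factors. With those factors 24.2% of all rows were higher and 30.9% lower. SIRT1, a deacetylase that binds the CLOCK complex, rose by 0.86 ± 0.16 (edgeR adjusted p = 2.81e-05) in 14 of 15 animals, and stood at 0.31 without TMM factors (adjusted p = 0.155). NONO, a partner of PER proteins, fell by 0.34 ± 0.09 (edgeR adjusted p = 0.00186) and WDR5, a methyltransferase subunit, by 0.51 ± 0.16 (adjusted p = 0.00739).

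Genes that glucocorticoids are known to induce rose in 9 of 10 cases, with a median of 0.83, and in 3 of 10 without TMM factors. For this and the next list, 24.2% of all rows were called higher and 30.9% lower with TMM factors. Of the glucocorticoid-induced genes that rose, MT2A was counted with MT1A and MT1E over a locus 42.7 times its RefSeq span. CEBPD was counted over 28.1 times its span, and KLF9 with TRPM3 over 4.41 times. PDK4, a kinase that curbs glucose oxidation, rose by 2.13 ± 0.25 (edgeR adjusted p = 2.39e-08) and TSC22D3 (GILZ), a mediator of glucocorticoid action, by 0.94 ± 0.15 (adjusted p = 2.16e-06). Immediate early genes rose in 6 of 12 cases and fell in 0, against 1 and 3 without TMM factors and 3 and 0 without the animals with a lettered virgin title, with EGR2 at 0.93 ± 0.25 and EGR3 at 0.58 ± 0.15, both zinc finger factors (edgeR adjusted p = 0.00193 and 0.00198). FOSL1, among the immediate early genes that rose, was counted with FIBP and EFEMP2 over a locus 4.39 times its RefSeq span. The part of both lists in the clock gene changes was not tested.

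Markers of other cells differed between the stages as well, beside 24.2% of all rows called higher and 30.9% lower. Endothelial markers were higher in 10 of 10 cases, summing to 34.2 to 758 CPM in virgin and 254 to 1673 CPM in lactating libraries, with KDR at 2.31 ± 0.30 and CDH5 at 2.45 ± 0.40. Leukocyte markers were higher in 9 of 9 (18.9 to 102 CPM against 143 to 591), with CD14 at 3.46 ± 0.28, over a locus 25.9 times its RefSeq span, and CD8A at 2.61 ± 0.23. Adipocyte markers were higher in 3 of 5 and lower in 1 (4.35 to 186 CPM against 41.4 to 1815), with LPL, which milk-secreting cells also express, at 5.73 ± 0.64 and FABP4 at 4.38 ± 0.65. PLIN1, a coat protein of adipocyte lipid droplets, fell (-1.18 ± 0.20, edgeR adjusted p = 7.85e-06), and ADIPOQ, an adipocyte hormone, was not called (0.61 ± 0.30, adjusted p = 0.0880). Fibroblast markers were higher in 1 of 8 and lower in 4 (326 to 21434 CPM, the top being V502, against 530 to 1643), with PDGFRB at 1.09 ± 0.35 and DCN at -0.67 ± 0.15. Without V502 and V509 the fibroblast count was 2 higher and 1 lower, and the median turned from -0.69 to 0.18. It was also 2 higher and 1 lower with the animal as a block (median 0.29), and 3 higher and 1 lower with DESeq2 (median 0.07). Luminal epithelial markers were present in all libraries. They summed to 1905 to 7660 CPM in virgin and 1320 to 3312 CPM in lactating libraries. In V502 the fibroblast sum (21434 CPM) was larger than the luminal sum (1905 CPM). In L595 both the endothelial (1673 CPM) and fibroblast sums (1504 CPM) were larger than the luminal sum (1320 CPM). In L507 the adipocyte sum (1815 CPM) was larger than the luminal sum (1740 CPM). The lists differ in genes and locus spans, so these sums do not rank the amounts of cell types. The adipocyte sums in lactation rested on LPL and FABP4, which reached 608 and 1219 CPM in lactating libraries. The other adipocyte markers reached no more than 20.5 CPM there. Of the luminal markers 6 of 9 fell and 1 rose, with FOXA1 at -1.87 ± 0.27 and KRT18 at -2.24 ± 0.37. Of the basal markers 2 of 8 rose and 3 fell, with OXTR at 1.22 ± 0.23 and the KRT5 locus, shared with other keratins, at -1.68 ± 0.25. KRT14 and KRT17, counted among those that fell, were 1 joined locus. With each locus taken once, 2 of 7 basal markers rose and 2 fell. The 6 milk protein genes all rose, among them CSN3 (6.19 ± 0.52) and LALBA (10.71 ± 1.42, over a locus 43.7 times its RefSeq span). The part of these cells in the clock gene changes was not tested.

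Clock genes spread more widely between virgin than between lactating libraries. The SD of log2 CPM was larger in the virgin group for 8 of 9 rows, with a median of 0.548 against 0.313. Of all tested rows 87.2% had a larger SD in the virgin group, with medians of 0.566 and 0.341, which is near the share among the clock genes. For DBP the SD was 1.08 in virgin and 0.364 in lactating libraries, and for ARNTL 0.387 and 0.156. Without V479, 7 of 9 rows had the larger virgin SD, against 79.7% of all rows, and that of DBP was 0.995.

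The biological coefficient of variation over both stages ranked DBP at the 84.1 percentile of all tested rows, NR1D1 at 78.2 and CRY2 at 76.5. ARNTL, NR1D2 and CRY1 lay low, at the 13.4, 14.9 and 16.4 percentiles. Among the 500 rows nearest in abundance, CRY2 was at the 88.6 percentile, DBP at 80.4 and ARNTL at 10.6. In the lactating group the SD of ARNTL lay at the 4.39 percentile of tested rows.

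**Figure D3:**
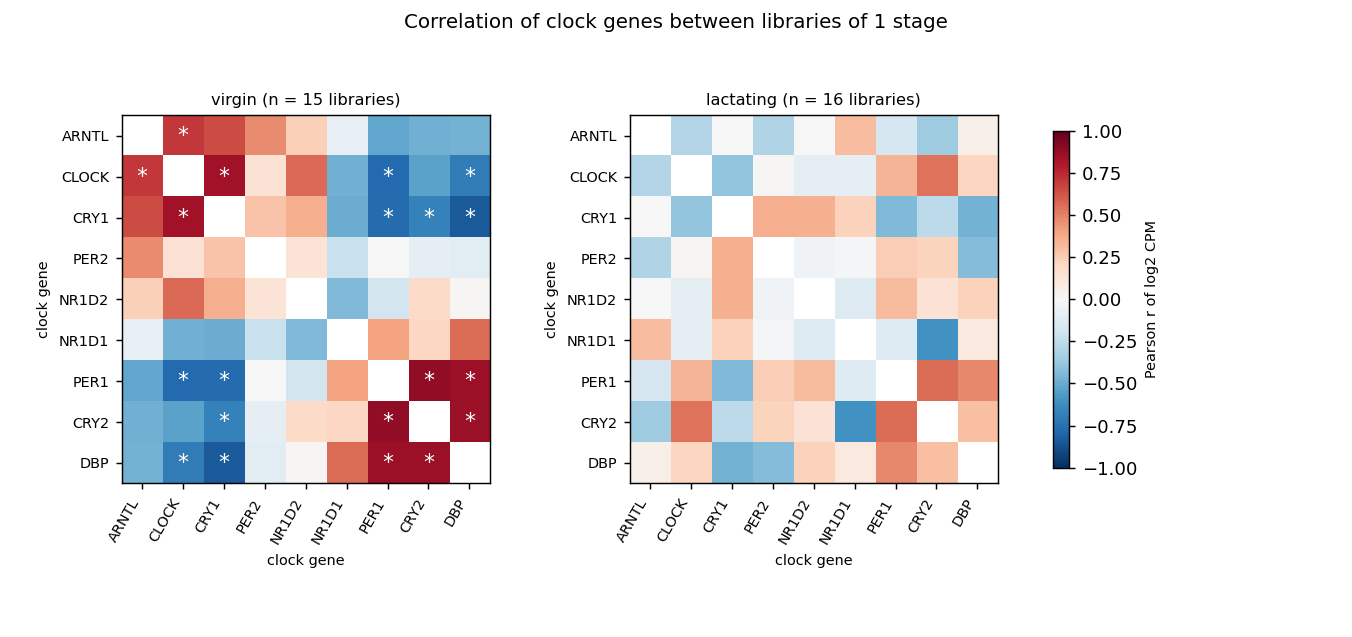
Pearson r of log2 CPM for each of 36 pairs of clock genes over 15 virgin (left) and 16 lactating libraries (right), from -1 (blue) to 1 (red); a star marks a permutation p adjusted over the 72 pairs and stages under 0.05. In the virgin group 10 pairs are starred, 5 positive and 5 negative, and in the lactating group 0.

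In virgin libraries several clock genes varied together, but the share of pairs called among all genes was not measured. Whether such calls are particular to clock genes therefore cannot be said. Over the 36 pairs in each stage, 10 virgin pairs had a two-sided permutation p under 0.05 after Benjamini-Hochberg adjustment over all 72 pairs and stages, 5 with a positive and 5 with a negative r. Pairs with a positive r joined the PER1 locus, CRY2 and DBP to each other, and CLOCK to ARNTL and to CRY1. Pairs with a negative r set CLOCK and CRY1 against the PER1 locus and DBP, and CRY1 against CRY2. PER2, NR1D1 and the NR1D2 locus were in none of the 10.

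Between the PER1 locus and DBP, r was 0.86 and Spearman's rho 0.90 over 15 virgin libraries (permutation p = 1e-05 for r, the smallest that 100000 resamples can give, and adjusted p = 7.2e-04). Without the 2 libraries farthest from the PER1 median r was 0.84. CRY2 and DBP gave r = 0.87 and rho = 0.92 (permutation adjusted p = 9e-04, 0.91 without the 2 farthest). The PER1 locus and CRY2 gave r = 0.89 and rho = 0.94 (permutation adjusted p = 9e-04, 0.94 without the 2 farthest). The library high for 1 of these genes was thus high for the others.

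CRY1 ran against DBP, with r = -0.84 and rho = -0.91 (permutation adjusted p = 9e-04, -0.87 without the 2 farthest). It ran with CLOCK, with r = 0.84 and rho = 0.79 (permutation adjusted p = 0.00115, 0.64 without the 2 farthest). The activator pair CLOCK and ARNTL gave r = 0.71 and rho = 0.71 (permutation adjusted p = 0.0191, 0.74 without the 2 farthest). ARNTL and CRY1, at r = 0.65 and rho = 0.61, missed the threshold (permutation adjusted p = 0.0534). In each of the 10 called pairs r kept its sign and stayed beyond 0.5 in size without the 2 libraries farthest for 1 gene of the pair. With any 1 virgin library left out, the highest permutation adjusted p was 0.232 for CLOCK and the PER1 locus. It was 0.121 for CLOCK and DBP and for CRY1 and CRY2, 0.105 for the PER1 locus and CRY1, and 0.0624 for ARNTL and CLOCK. For the other called pairs it was 0.0114 or less.

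**Figure D4:**
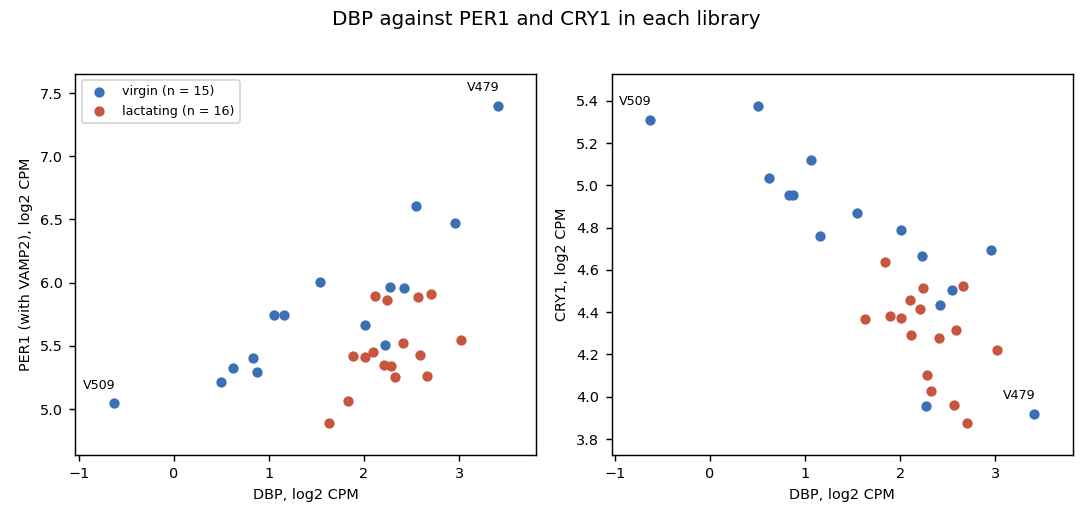
DBP against the PER1 locus (left) and CRY1 (right) in log2 CPM; each point is a library, blue virgin (n = 15) and red lactating (n = 16). Virgin points lie along a line from V509, lowest in DBP, to V479, highest, with r of 0.86 for PER1 and -0.84 for CRY1, and the lactating points are bunched within the virgin range of DBP.

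No pair was called in the lactating group, where 3 of 36 had an unadjusted permutation p under 0.05 and 0 were called by Spearman's rho. The PER1 locus and DBP gave r = 0.48 and rho = 0.46 over 16 lactating libraries (permutation adjusted p = 0.209), and CRY1 and DBP r = -0.48 and rho = -0.51 (permutation adjusted p = 0.219). The sign was that of the virgin group in both. CLOCK and CRY1 had r = -0.39 and rho = -0.38 there (permutation adjusted p = 0.325). Whether a correlation differed between the stages was not tested.

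The virgin correlations went with a pattern that many genes share. The first principal component of all tested loci held 30.2% of the variance between virgin libraries, and V479 lay farthest out on it. Its r was 0.91 with CLOCK, 0.89 with CRY1 and 0.79 with ARNTL. With DBP it was -0.83, with the PER1 locus -0.82 and with CRY2 -0.72. For PER2, NR1D1 and the NR1D2 locus r was 0.40, -0.48 and 0.34. After that component was removed, 0 of 36 virgin pairs were called by permutation, with 10 under 0.05 unadjusted and 0 called by Spearman's rho. The remaining r was 0.75 for the PER1 locus and CRY2 (rho = 0.71, 0.64 without the 2 farthest, permutation adjusted p = 0.0526) and 0.69 for CRY2 and DBP (rho = 0.64, 0.63 without the 2 farthest, permutation adjusted p = 0.0936). It was 0.55 for the PER1 locus and DBP (rho = 0.42, 0.39 without the 2 farthest, permutation adjusted p = 0.150) and 0.12 for CLOCK and CRY1 (rho = 0.28, 0.31 without the 2 farthest, permutation adjusted p = 0.836). Leaving out V479 alone left 5 called pairs, and leaving out any other 1 virgin library left 7 to 11. Without the 5 animals with a lettered virgin title 6 were called, and without TMM factors 16 virgin and 15 lactating pairs. V479 was the lowest virgin library for ARNTL, CLOCK, CRY1 and the NR1D2 locus and the highest for the PER1 locus, NR1D1 and DBP. It also had the lowest total of the virgin libraries (12477568 counts), and its sums for luminal markers (7660 CPM) and glucocorticoid-induced genes (2474 CPM) were the highest of the 15. V478, V490 and V479, the 3 highest virgin libraries for the PER1 locus, CRY2 and DBP, also had the 3 highest virgin sums of immediate early genes (8086, 6998 and 6031 CPM, ahead of V581 at 3510 CPM). The part of these genes in the correlations was not tested.

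Whether a cow kept its rank for a clock gene from 1 stage to the other was asked over the same animals. Over the 15 animals, 0 of 9 rows had a correlation between the stages with an adjusted permutation p under 0.05, by Pearson's r or by Spearman's rho, and 1 had an unadjusted p under 0.05. That was CRY2, with r = 0.55 and rho = 0.63 (permutation p = 0.0348 and 0.0147, adjusted p = 0.313 and 0.132, and r = 0.49 without the 2 farthest animals). For PER1 r was 0.41 and rho 0.52 (permutation adjusted p = 0.403), and 0.74 without the 2 farthest animals. CLOCK (-0.18) and NR1D1 (-0.08) had the lowest r (rho -0.46 and -0.11, permutation adjusted p = 0.636 and 0.765).

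The genes whose levels most resembled those of each clock gene were sought over all 31 libraries after removal of stage means, among 9156 or 9157 other named single loci whose average log2 CPM was 1 or more. Likeness is Pearson's r, given as a description, and the points share their library and depth. For DBP the nearest were ZFP36 (r = 0.90), CSRNP1 (0.89) and CALCOCO1 (0.88), the first an RNA-binding protein that destabilises messengers. For the PER1 locus they were HPS1 (0.87), PGAP2 (0.85) and CX3CL1 (0.85), and for CRY2 they were TCTN2 (0.88), INPP5B (0.87) and DIS3L2 (0.86). For CRY1 they were DCP2 (0.92), a messenger decapping enzyme, CFAP97 (0.90) and IREB2 (0.90), and for CLOCK they included REV3L (0.90) and SMAD5 (0.89). For ARNTL they were LONRF3 (0.87), TLR7 (0.86) and SIRT1 (0.85), which is also on the cofactor list. For the NR1D2 locus they were CHML (0.87), SKIL (0.86) and CCSER1 (0.85), and for NR1D1 RBM38 (0.80), ERF (0.75) and PIAS3 (0.75). PER2 had the lowest values of likeness among the 9, with LLPH (0.65), KRT1 (0.65) and LANCL2 (0.63) as its nearest.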

How the data were processed

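The deposited table of raw read counts per gene was analysed for 15 virgin and 16 lactating libraries. A second deposited table gave RPKM, log2 fold changes and adjusted p-values (q-values) by the authors, whose sign, set beside the RPKM means, runs from lactating to virgin and was turned round here. The submitters' processing notes name build UMD3.1 and, without settings, featureCounts 1.5.2, StringTie 1.3.2, HISAT2 2.0, edgeR and SAMtools. Rows with identical counts in all libraries were taken as 1 joined locus (592 of 13407 loci). Locus lengths, recovered as whole numbers (to within 1.16e-09) from count over RPKM, were compared with gene spans in a RefSeq table of another build (ARS-UCD2.0), matched by symbol for 10 of 10 genes. These lengths match genomic spans and not transcripts, so levels were not ranked between genes.

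The fit used edgeR 4.0.16 in R 4.3.3: filterByExpr (minimum count 10, total 15), TMM factors, robust glmQLFit and glmQLFTest with stage as the only term. The SE is the log2 fold change over the square root of F. Log2 CPM had a prior count of 2. Correlations used NumPy 2.4.6 and 100000 resamples. On simulated data for this comparison (13136 rows), 20 of 50 rows changed 1.5-fold, 41 of 50 changed 2-fold and 50 of 50 changed 4-fold were recovered, with 6 false calls in 167. Only 50 rows were changed at each of 1.5-, 2-, 4- and 8-fold, while 55.1% of rows were called in the data. The recovery rates therefore need not hold for the fit to the data. No 2 libraries agreed within sampling noise (lowest chi-square per degree of freedom 35.0).

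The replicate number is the animal, per the series design, so it pairs the samples: after removal of stage means, libraries of 1 animal correlated at 0.07 to 0.39, over 0.1 in 12 of 15 pairs. The clock genes and all lists were chosen with earlier results of these data known. Named were the 9 rows, the 8 other clock genes with the smallest p and those called against their list, the 2 smallest p of each other list, and the 3 nearest genes by correlation. Results for 2 genes are not reported here. TEF, HLF, NPAS2, FBXL21, BHLHE40, BHLHE41, KLF10, ALAS1, KRT14, KRT17, PLIN1 and ADIPOQ were named after their values were seen. Alternatives were the animal block, scaling, DESeq2 1.42.0, limma-voom (limma 3.58.1), filters, joined loci and left-out libraries. Removal of the first principal component and leave-one-out of correlations and spreads were added after the data were seen.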

Additional observations from a re-analysis of the deposited data

How the results depend on the processing

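Of the clock rows, PER2 and CRY1 kept direction and call under all 12 alternatives, as they did with each library left out in turn. The other 7 rows changed their call under 1 alternative or more, as given above. Without TMM factors the counts higher and lower in lactation were 1389 and 7751 for all rows. They were 0 and 5 for the 9 clock rows and 4 and 16 for the other clock genes. In that setting 31 of the accompanying lists' genes were higher, CSNK1A1 turned to -0.12, and 16 virgin and 15 lactating pairs were called. Without the animals with a lettered virgin title 10 of the other clock genes were higher and 5 lower, with no count over all rows beside them. In that setting 6 virgin pairs were called, and 1 of 9 rows correlated between the stages. With the first principal component removed 0 virgin pairs were called. The cause of these shifts was not tested. With the animal as a replicate block 4 of the 9 clock rows were higher and 3 lower, DBP being the added call, and of the other clock genes 15 were higher and 7 lower; the block also ended the POR call (-0.33, adjusted p = 0.135). Each library left out in turn gave 2 to 4 clock rows higher and 2 to 3 lower, 14 to 16 and 8 to 9 of the other clock genes, 5 to 11 virgin pairs (5 without V479) and 0 to 1 lactating pairs (1 without L538 or L595). Depth limits NR1D1 most, at 22 to 176 counts per library, and DBP, at 47 to 320.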
